A study of Rattus norvegicus with 6 samples.

Results

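Glycolysis and hypoxia response genes were examined in the mesenterial fat of newborn rats whose dams had eaten feed with or without vitamin D. The set comprised 36 genes, namely the enzymes of glycolysis, the transporters of glucose and lactate, the hypoxia-inducible factors (HIF) and genes that HIF switches on. Probe sets, the groups of short probes that report 1 transcript on an Affymetrix array, were taken where the platform annotation gave exactly 1 symbol and that symbol was in the set. This gave 54 of the 31099 probe sets, covering 35 of the 36 genes, out of 14218 genes with such a probe set. No probe set for the pyruvate kinase gene Pkm carried a single symbol, so Pkm is not analysed here.

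All animals were wildtype Sprague-Dawley newborns, an outbred laboratory rat, and the tissue was mesenterial adipose tissue, the fat of the folds that suspend the gut. The adequate group (3 arrays) came from dams given 1000 IU of vitamin D per kg of feed, and the deficient group (3 arrays) from dams given 0 IU per kg. The sources do not say whether each array was a separate animal, nor give litter or sex, so the spread that enters each p-value may be technical rather than between animals. Whole tissue was profiled, so fewer cells of a type and less RNA per cell cannot be told apart.

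Glycolysis splits glucose into pyruvate in the cytosol, and lactate dehydrogenase turns pyruvate into lactate when oxygen is short. HIF is a pair of proteins: an alpha subunit, Hif1a or Epas1, which prolyl hydroxylases such as Egln1 and Egln3 mark for destruction through Vhl when oxygen is present, and the stable partner Arnt. When oxygen falls the alpha subunit persists, and HIF binds a short core sequence in DNA and raises many glycolytic enzymes, Slc2a1, Vegfa and its own hydroxylase Egln3. In fat tissue, glucose enters mainly through Slc2a1 and the insulin-responsive Slc2a4.

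The HIF core is ACGTG or GCGTG, on either strand; on the opposite strand the letters read CACGT or CACGC, and CACGTG holds a core on each strand. Start-site windows were available from RefSeq (GRCr8) for 33 member genes, 38 windows in all, and the 250 bases before each start were searched. Pgk1, Slc2a4 and Ndrg1 had no window. A core was found in 61.8% of the 34 windows of tested members, in 55.3% of the 9861 windows of all tested named genes and in 36.7% of all 33469 windows. The form ACGTG was in 38.2%, 21.9% and 16.6% of these windows and GCGTG in 44.1%, 44.2% and 25.9%. Mean GC content was 63.2% in the windows of tested members, 59.996% in those of all tested named genes and 52.2% in all windows. The windows with the most cores, 4 each, belonged to Ldha (chr1:106507842-106508091, plus strand), Slc2a1 (chr5:138002272-138002521, plus strand) and Bnip3 (chr1:203154963-203155212, minus strand). They are printed with that of Ddit4 (chr20:28437038-28437287, minus strand), which holds 2 cores and was lower at an unadjusted p under 0.05 in more of the alternative fits than any other member. Sequences run 5′ to 3′ along the gene and end at the base before the start, with cores in capitals.
Ldha: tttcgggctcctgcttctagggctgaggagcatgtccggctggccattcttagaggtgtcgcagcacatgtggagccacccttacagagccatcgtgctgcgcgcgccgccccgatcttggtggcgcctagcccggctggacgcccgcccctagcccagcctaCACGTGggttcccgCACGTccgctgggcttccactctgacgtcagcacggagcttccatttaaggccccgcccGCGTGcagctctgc
Slc2a1: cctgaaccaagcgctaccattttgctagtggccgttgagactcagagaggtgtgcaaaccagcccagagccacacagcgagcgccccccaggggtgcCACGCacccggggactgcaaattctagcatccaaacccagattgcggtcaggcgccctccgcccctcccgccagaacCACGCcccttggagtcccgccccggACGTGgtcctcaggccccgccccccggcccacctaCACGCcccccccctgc
Bnip3: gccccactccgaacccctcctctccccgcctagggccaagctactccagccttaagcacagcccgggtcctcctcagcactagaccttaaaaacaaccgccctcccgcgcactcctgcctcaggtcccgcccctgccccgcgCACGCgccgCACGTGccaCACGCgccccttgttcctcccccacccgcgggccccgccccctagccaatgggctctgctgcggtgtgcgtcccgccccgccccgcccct
Ddit4: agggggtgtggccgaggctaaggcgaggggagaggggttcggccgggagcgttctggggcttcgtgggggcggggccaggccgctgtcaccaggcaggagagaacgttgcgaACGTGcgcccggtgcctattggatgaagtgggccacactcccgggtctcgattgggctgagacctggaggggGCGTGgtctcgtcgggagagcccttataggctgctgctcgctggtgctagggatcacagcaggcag
The core nearest the start began 14 bases before it in Ldha and 16 in Slc2a1, and the nearest in Bnip3 and Ddit4 began 90 and 66 bases before it. Among the 9 members whose groups did not overlap, Slc2a1 held 4 cores, Ddit4 and Pdk1 2, Pfkm and Egln1 1, and Vegfa, Egln3, Gpi and Tpi1 held 0. A core was in 50% of the 10 windows of these members, near the share of all tested named genes. A match is a description of letters, and no binding was measured.

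Deposited values were MAS5 signals, given here as log2. Probe sets were tested with limma where their mean log2 signal reached 6.46, the 40th percentile, which left 18625, and 10591 named genes by their brightest probe set. Of the members, 35 probe sets of 32 genes were tested. Deficient arrays 1 and 2 stood apart in the whole series: on the first principal component (49.5% of the variance) they lay at 43.1 and 46.4 and the other arrays between -26.2 and -18.5. Their bacterial hybridisation controls read 7.19 and 10.1 times the adequate mean, against 0.960 on deficient array 3. Their beta-actin 3′ over 5′ ratios, a standard quality measure of these arrays, were 7.56 and 6.80, against 2.35 on deficient array 3 and 2.39 to 4.81 on the adequate arrays. The part of these measures in the values below was not tested beyond the covariate fits given.

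The tissue label was checked against 9 measured adipocyte markers. Fabp4, Lpl, Cd36 and Lipe were above the cutoff on all 6 arrays, with Fabp4, the fatty acid carrier, at 11.15 and Lpl, lipoprotein lipase, at 10.45 in the adequate group. Adipoq, Plin1, Cidec, Pparg and Lep had means below the cutoff, with Adipoq at 4.47 and Plin1, the coat protein of lipid droplets, at 3.64 in the adequate group. The adipocyte markers therefore bore out the label only in part. Smooth muscle markers read from 12.21 (Acta2) to 14.34 (Actg2) in the adequate group, though probe sets differ in how strongly they bind. Which cells gave the signal of the members was not tested.

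The comparison asks whether these genes differed with the vitamin D supply of the dam. Of the 32 tested members, 26 had a lower mean in the deficient group and 6 a higher one, but no member passed adjustment over all probe sets. With limma and Benjamini-Hochberg adjustment, 0 of 18625 probe sets passed (0% of all), and the smallest adjusted p among members was 0.344. A lower mean was also the rule across the array, in 60.8% of named genes, against 81.2% of members. At an unadjusted p under 0.05, 10 members (31.2%) were lower, against 10.1% of all named genes, and 0 members were higher, against 4.75%. The groups did not overlap for 9 members, all lower (28.1%), against 13.3% of named genes lower and 4.97% higher. The members' median log2 change was -0.30, and that of all named genes -0.09. Members were chosen with earlier results of these data known, so these shares describe the list and cannot test whether it exceeds the background. The count of 10 varied with the arrays kept. It was 0 without adequate array 1, 2 without adequate array 3 and 1 without deficient array 2, where 3.29%, 4.48% and 3.42% of named genes were lower at that level. It was 8 without adequate array 2 and 8 without deficient array 1, where 8.48% and 6.87% of named genes were lower. Leaving out any array also lowers the power of the test. Without deficient array 3 the count was 13, with 24.6% of named genes lower at that level. In that fit 8 members passed the adjusted threshold (6 lower, 2 higher), as did 22.0% of all named genes.

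**Figure D1:**
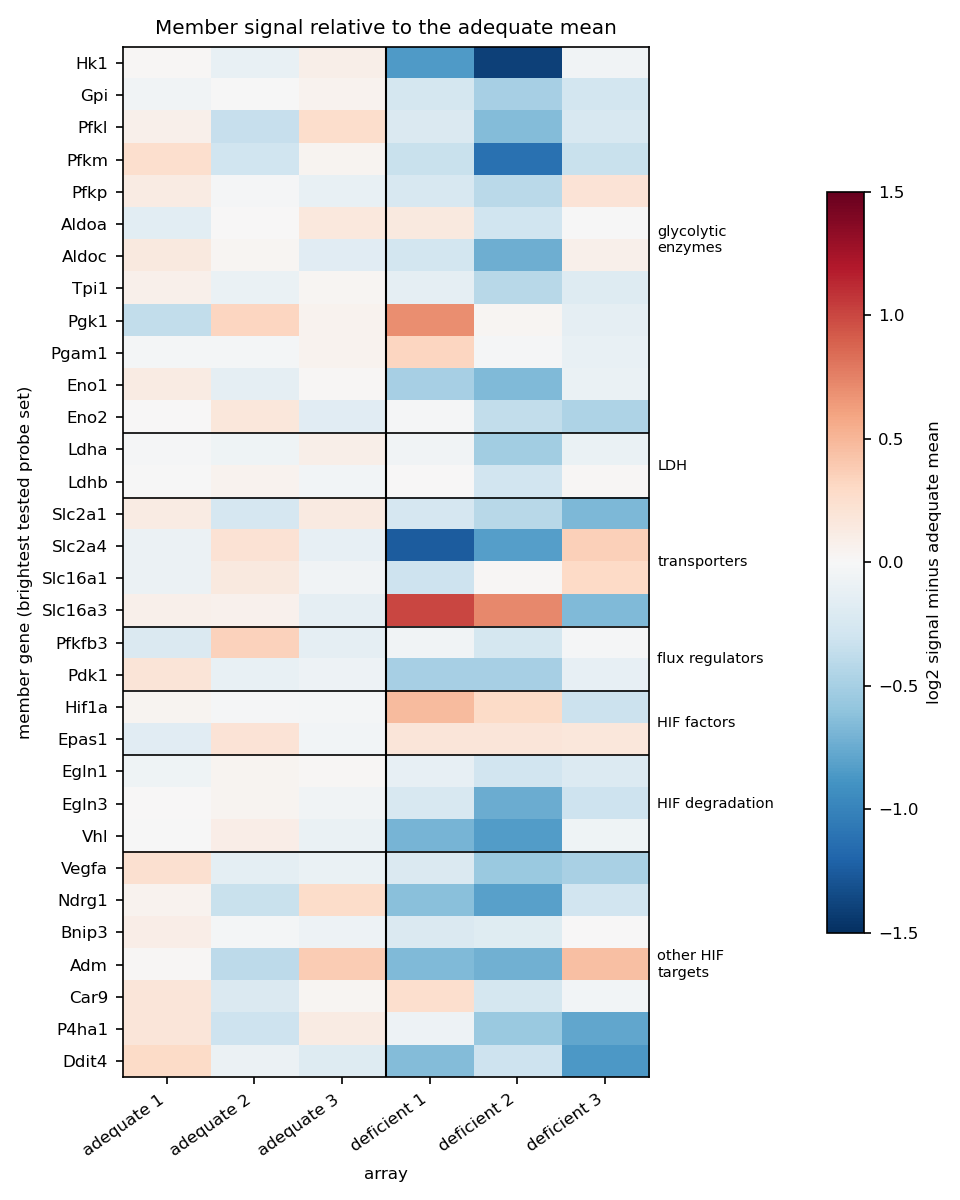
Log2 signal of the 32 tested members (rows, grouped by role) on each of the 6 arrays (columns), minus the mean of the 3 adequate arrays; blue is lower and red higher. The column of deficient array 2 is the bluest, with 20 of 32 members at their lowest there, while Slc16a3 and Hif1a are red on deficient arrays 1 and 2 and blue on array 3.

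Deficient array 2 carried most of the low values. It gave the lowest signal of 20 members (62.5%), against 29.0% of named genes, and lay below the adequate range for 26 (81.2%), against 48.1% of named genes. Relative to the adequate mean, the median member stood at -0.22, -0.42 and -0.12 on deficient arrays 1, 2 and 3, where the median named gene stood at -0.09, -0.14 and -0.03. On deficient array 3, whose quality measures resembled those of the adequate arrays, 15 members (46.9%) lay below the adequate range, against 32.1% of named genes. Across the deficient arrays, 20 members were below the adequate mean both on array 3 and on the average of arrays 1 and 2, 7 were below on arrays 1 and 2 but above on array 3, 4 the reverse and 1, Epas1, above on both.

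**Figure D2:**
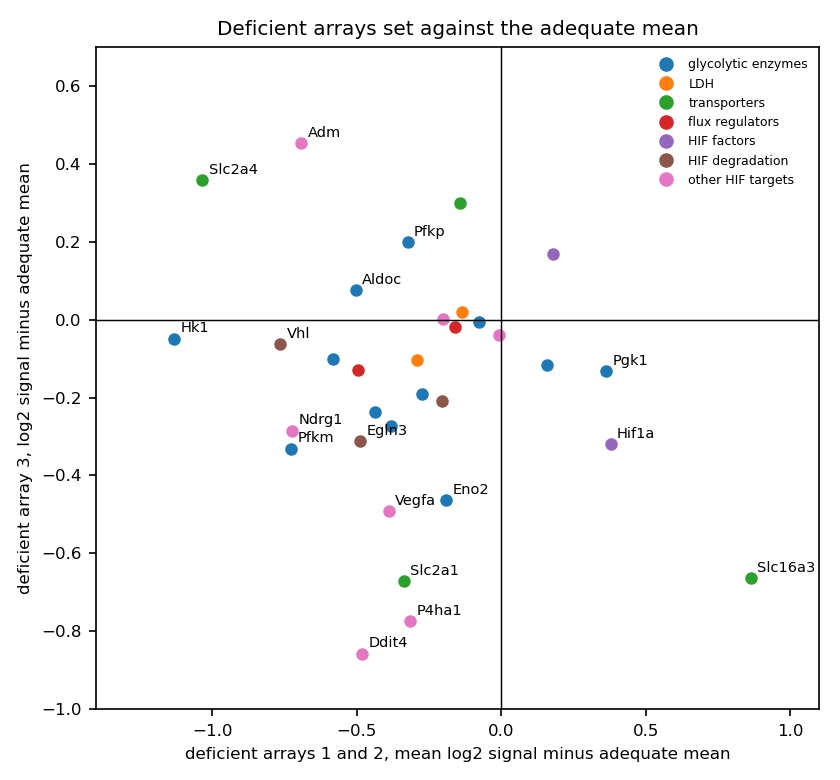
Each point is a tested member; the x axis gives the mean of deficient arrays 1 and 2 and the y axis deficient array 3, both as log2 signal minus the adequate mean, so the axes share their baseline. Ddit4, P4ha1 and Slc2a1 lie lowest on the y axis, Hk1 and Slc2a4 farthest left, and Slc16a3 and Hif1a at the lower right.

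Among the glycolytic enzymes, 12 of 15 were tested, and 10 had lower and 2 higher means in the deficient group, with a median log2 change of -0.30. Across the array 60.8% of named genes had a lower mean. Hk1, the hexokinase that traps glucose in the cell as glucose 6-phosphate, read 10.10, 9.97 and 10.17 in the adequate group against 9.22, 8.67 and 10.03. Deficient arrays 1 and 2 were far below the adequate arrays and array 3 was among them, so the groups overlapped. The log2 change was -0.77 ± 0.29 (SE), a fold of 0.586, with an adjusted p of 0.344 by limma. It was -0.05 ± 0.17 (SE) with deficient array 3 alone against the adequate arrays. In this and every later fit with that array alone, a setting chosen after its values were seen, the SE holds no spread among deficient arrays: it comes from the 3 adequate arrays and limma's prior, and the lone array is assumed to vary like them. Hk2, the insulin-regulated hexokinase of muscle and fat, stayed under the cutoff on every array, between 3.06 and 5.86, and was not tested.

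Gpi, which converts glucose 6-phosphate to fructose 6-phosphate, read 11.76, 11.80 and 11.86 in the adequate and 11.54, 11.31 and 11.53 in the deficient group. Each deficient array was below each adequate one. The change was -0.35 ± 0.15 (SE), a fold of 0.787, adjusted p 0.344 by limma.

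Phosphofructokinase, the committed step, has 3 genes. Pfkm, the muscle form, read 10.20, 9.65 and 9.99 in the adequate group and 9.62, 8.83 and 9.62 in the deficient group, without overlap, though adequate array 2 and deficient arrays 1 and 3 were close. Its change was -0.60 ± 0.24 (SE), adjusted p 0.344 by limma. Pfkl, the liver form, read 8.76, 8.34 and 8.94 against 8.46, 8.03 and 8.44, and Pfkp, the platelet form, 10.69, 10.55 and 10.46 against 10.33, 10.16 and 10.77. Both overlapped, with changes of -0.37 ± 0.22 and -0.15 ± 0.18 (SE). Pfkp was above every adequate array on deficient array 3.

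The middle of the pathway was mixed. Aldoa, the main aldolase, read 12.53, 12.69 and 12.85 against 12.84, 12.39 and 12.69, a fold of 0.964 with a 95% interval from 0.736 to 1.26. Aldoc, the aldolase of brain and nerve, read 9.45, 9.34 and 9.14 against 9.04, 8.57 and 9.39, lower on deficient arrays 1 and 2 only. Tpi1, triose phosphate isomerase, read 12.28, 12.11 and 12.23 against 12.07, 11.79 and 12.01, without overlap, a change of -0.25 ± 0.15 (SE). Adequate array 2 and deficient array 1 were close there.

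Gapdh was represented only by the array's own control probe sets, which were not tested. Its 3′ set read 13.13, 13.11 and 13.27 with adequate feed against 12.73, 12.79 and 13.16 without. The 5′ set read 12.89, 12.72 and 13.10 against 11.96, 12.34 and 13.03. At both ends deficient arrays 1 and 2 were below the adequate arrays and array 3 was among them. The 3′ over 5′ ratio was 1.18, 1.30 and 1.13 in the adequate and 1.71, 1.36 and 1.09 in the deficient group.

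Pgk1, phosphoglycerate kinase, gave opposite signs on its tested probe sets. The brighter read 12.40, 13.10 and 12.83 against 13.47, 12.81 and 12.64, a change of 0.20 ± 0.25 (SE), with deficient array 1 the highest of all. The other read 11.88, 11.85 and 11.73 against 11.38, 11.44 and 11.66, lower on each deficient array, a change of -0.32 ± 0.15 (SE), adjusted p 0.354 by limma. Processed copies of Pgk1 exist in rodent genomes, and which transcripts each set reads was not tested. Pgam1, phosphoglycerate mutase, read 12.70, 12.70 and 12.78 against 13.06, 12.72 and 12.61, a fold of 1.05 (95% interval 0.809 to 1.36).

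Eno1, the widespread enolase, read 12.64, 12.39 and 12.54 against 12.02, 11.86 and 12.42. Deficient array 3 was within the adequate range and the other deficient arrays below it; the change was -0.42 ± 0.18 (SE), adjusted p 0.345 by limma. Eno2, the enolase of neurons, read 9.85, 10.00 and 9.67 against 9.82, 9.47 and 9.37, a change of -0.28 ± 0.18 (SE). Here deficient array 1 was among the adequate arrays and array 3 was the lowest. Ldha, which makes lactate, read 12.82, 12.78 and 12.94 against 12.79, 12.32 and 12.74, and Ldhb, which favours pyruvate, 11.95, 12.01 and 11.91 against 11.97, 11.67 and 11.97. The folds were 0.854 (95% interval 0.654 to 1.12) and 0.943 (0.746 to 1.19), and for both deficient array 2 was the low one.

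The transporters did not share a direction. Slc2a1, the basal glucose carrier, read 8.93, 8.55 and 8.94 in the adequate and 8.55, 8.39 and 8.13 in the deficient group. Adequate array 2 and deficient array 1 were nearly equal, and no deficient array exceeded an adequate one. The change was -0.45 ± 0.20 (SE), a fold of 0.733, adjusted p 0.350 by limma, and it was -0.67 ± 0.25 (SE) with deficient array 3 alone. Slc2a4, the insulin-responsive carrier, read 10.12, 10.43 and 10.09 against 8.97, 9.39 and 10.57 on its brighter probe set, so deficient arrays 1 and 2 were the lowest and array 3 the highest of all 6. The other set read 9.70, 9.29 and 9.73 against 9.55, 9.13 and 9.21, without that spread. Their changes were -0.57 ± 0.34 and -0.28 ± 0.19 (SE).

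Slc16a3, the lactate exporter of glycolytic cells, read 8.20, 8.19 and 7.99 against 9.13, 8.85 and 7.46. It was the highest on deficient arrays 1 and 2 and the lowest on array 3, so the mean change of 0.36 ± 0.37 (SE) describes no deficient array. Slc16a1, the broadly expressed lactate carrier, read 10.24, 10.48 and 10.29 against 10.03, 10.35 and 10.63, a fold of 1.00 (95% interval 0.758 to 1.33). The change of Slc16a3 was -0.66 ± 0.25 (SE) with deficient array 3 alone, and 0.86 ± 0.19 (SE) without that array, adjusted p 0.0137 by limma.

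Of the regulators of flux, Pdk1, which keeps pyruvate out of the mitochondrion, read 9.03, 8.73 and 8.76 against 8.35, 8.34 and 8.71, without overlap, a change of -0.37 ± 0.19 (SE), adjusted p 0.377 by limma. Its other tested set read 8.74, 8.69 and 8.68 against 8.28, 8.78 and 8.61 and overlapped, with a change of -0.15 ± 0.19 (SE). Pfkfb3, which makes the activator of phosphofructokinase, differed by -0.11 ± 0.21 (SE).

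**Figure D3:**
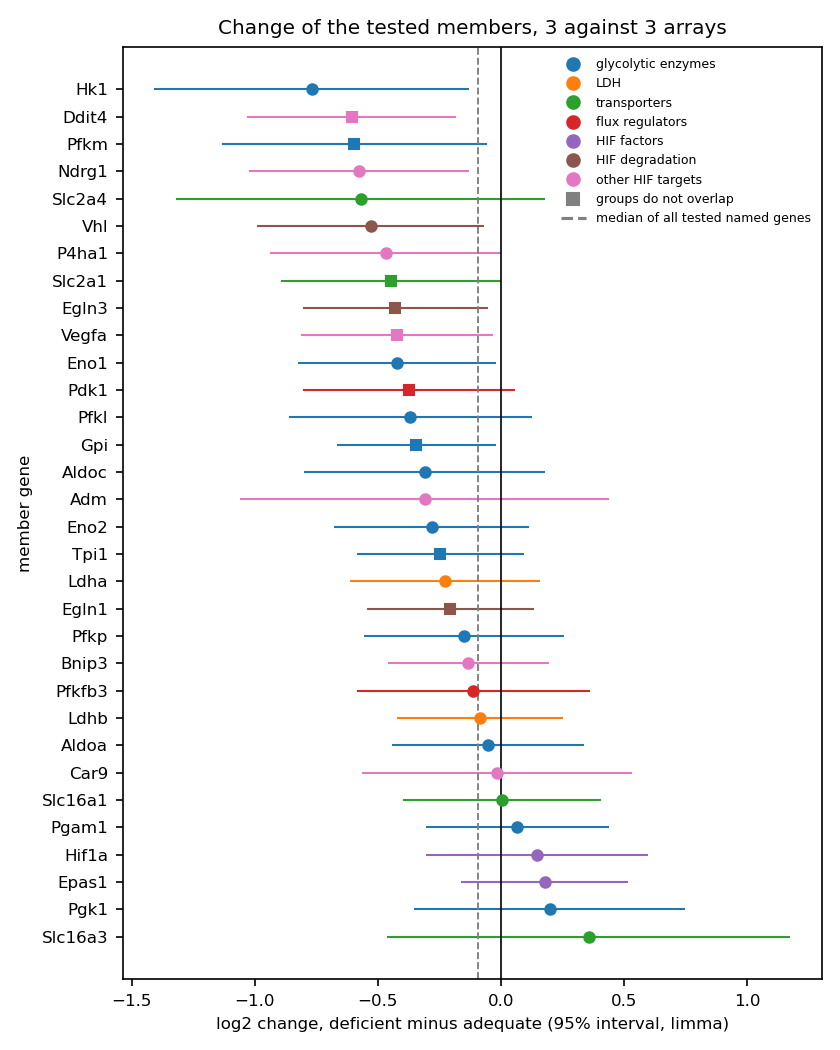
Log2 change of each tested member, deficient minus adequate, with its 95% interval from limma (n = 3 arrays each), coloured by role; squares mark the 9 members whose groups do not overlap. The changes run from -0.77 for Hk1 to 0.36 for Slc16a3, and the dashed line is the median of all named genes at -0.09.

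Both tested HIF subunits had a higher mean in the deficient group. Hif1a read 11.87, 11.81 and 11.79 in the adequate and 12.29, 12.11 and 11.50 in the deficient group, above the narrow adequate range on deficient arrays 1 and 2 and below it on array 3. Its change was 0.15 ± 0.20 (SE), with array 3 alone -0.32 ± 0.13 (SE, smaller because the close adequate arrays supply the spread), and without that array 0.38 ± 0.11 (SE), adjusted p 0.0407 by limma. Epas1, the alpha subunit prominent in endothelium, read 11.41, 11.78 and 11.54 against 11.76, 11.76 and 11.75, a fold of 1.13 (95% interval 0.894 to 1.43). Arnt was under the cutoff on all 6 arrays, between 2.39 and 5.51, and was not tested. The cutoff is a percentile of signal and not a detection limit, so this does not show that Arnt was absent.

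The genes of HIF breakdown had lower means in 3 of 3 cases, where 60.8% of all named genes had a lower mean. Egln3, the hydroxylase that HIF induces, read 10.62, 10.66 and 10.57 in the adequate and 10.38, 9.88 and 10.30 in the deficient group. No deficient array reached the tightly grouped adequate arrays; the change was -0.43 ± 0.17 (SE), a fold of 0.742, adjusted p 0.344 by limma. Egln1, the main oxygen sensor, read 9.56, 9.66 and 9.63 against 9.50, 9.33 and 9.41, also without overlap, a smaller change of -0.21 ± 0.15 (SE). Vhl, the ligase subunit that captures hydroxylated HIF, read 10.19, 10.29 and 10.10 against 9.50, 9.36 and 10.13. Only deficient arrays 1 and 2 were low there, and the change was -0.53 ± 0.21 (SE). Deficient array 3 lay -0.06 from the adequate mean.

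All 7 HIF targets outside glycolysis had lower means, as did 60.8% of all named genes. Their median change was -0.42, with a range from -0.61 for Ddit4 to -0.02 for Car9. Ddit4, a stress-induced inhibitor of mTOR complex 1, read 11.48, 11.10 and 11.00 in the adequate and 10.54, 10.89 and 10.34 in the deficient group, and every deficient array was below every adequate one. The change was -0.61 ± 0.19 (SE), a fold of 0.657, adjusted p 0.344 by limma. It was lower at an unadjusted p under 0.05 in 18 of 19 alternative fits, the exception being the fit without adequate array 1. These fits share arrays, and one of them is that with deficient array 3 alone, where the change was -0.86 ± 0.21 (SE).

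Vegfa, the vascular growth factor, read 10.22, 9.83 and 9.87 against 9.76, 9.41 and 9.48, without overlap, a change of -0.42 ± 0.18 (SE), adjusted p 0.344 by limma. Ndrg1, a stress-response gene, read 10.97, 10.57 and 11.19 against 10.28, 10.09 and 10.62, where deficient array 3 exceeded adequate array 2; its change was -0.58 ± 0.20 (SE), adjusted p 0.344 by limma. P4ha1, a collagen prolyl hydroxylase, read 10.93, 10.44 and 10.88 against 10.68, 10.19 and 9.98, lowest on deficient array 3, a change of -0.47 ± 0.21 (SE), adjusted p 0.350 by limma.

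The other members of this group varied more or less than the diets differed. Adm, the vasodilator peptide adrenomedullin, read 7.93, 7.52 and 8.30 against 7.25, 7.20 and 8.37, low on deficient arrays 1 and 2 and highest on array 3. Bnip3, a mitophagy receptor, read 10.68, 10.55 and 10.50 against 10.36, 10.39 and 10.58, a fold of 0.912 (95% interval 0.727 to 1.14). Car9, the carbonic anhydrase often used as a hypoxia marker, read 7.28, 6.88 and 7.13 against 7.35, 6.84 and 7.06, a fold of 0.988 (95% interval 0.676 to 1.45).

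Among the 20 members below the adequate mean on both, Ddit4, P4ha1, Slc2a1, Vegfa, Eno2, Egln1 and Car9 were more negative on deficient array 3 than on the mean of arrays 1 and 2, Egln1 and Car9 by little. In a fit with the hybridisation control level as covariate, the unadjusted p was under 0.05 for 3 lower members, Ddit4 (-0.81), P4ha1 (-0.68) and Slc2a1 (-0.62), against 2.93% of named genes. With the beta-actin ratio as a covariate these were 4, Ddit4, P4ha1, Eno2 and Gpi, against 4.37% of named genes. Hk1 (-0.06), Vhl (-0.09) and Eno1 (-0.09) were near 0 with the hybridisation covariate. The control level was 11.6 and 12.1 (log2) on deficient arrays 1 and 2 and 8.35 to 8.99 on the other arrays. In that fit the diet term therefore rested largely on deficient array 3 against the adequate arrays. It is nearly the comparison with array 3 alone, is no separate check of it, and its SE holds little spread among deficient arrays.

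Isoform genes were compared as the log2 ratio of their signals within an array, which removes scaling shared by the whole array. Probe sets differ in how strongly they bind, so a ratio shows a shift in balance and not which isoform is more abundant. Of 11 pairs fixed, 10 were computed; Hk1 with Hk2 was not, since Hk2 was under the cutoff. The exact two-sided permutation test cannot give a p under 0.1 with 3 arrays a group, and the smallest p adjusted over the 10 pairs was 0.6. Egln1 over Egln3 was the 1 pair without overlap, with a difference of 0.22 and an exact permutation p of 0.1. It read -1.064, -0.999 and -0.936 in the adequate group against -0.879, -0.550 and -0.897, so the ratio was higher on every deficient array, most on array 2.

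Pfkm over Pfkp was -0.62 ± 0.24 with adequate feed and -1.06 ± 0.32 with deficient feed (SD, n = 3 for both), an exact permutation p of 0.2. For Slc16a1 over Slc16a3 the adequate arrays read 2.05, 2.29 and 2.29 and the deficient arrays 0.89, 1.51 and 3.17, so array 3 lay on the far side of the adequate arrays from the other pair. Slc2a1 over Slc2a4 showed the same layout with the sign turned, at -1.192, -1.875 and -1.149 against -0.418, -0.998 and -2.435. Ldha over Ldhb differed by -0.14, more than the SD of either group (0.13 and 0.09, n = 3 for both), but the groups overlapped, with an exact permutation p of 0.2. Eno1 over Eno2 differed by -0.14 and Hif1a over Epas1 by -0.03, each less than the SD of either group.

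**Figure D4:**
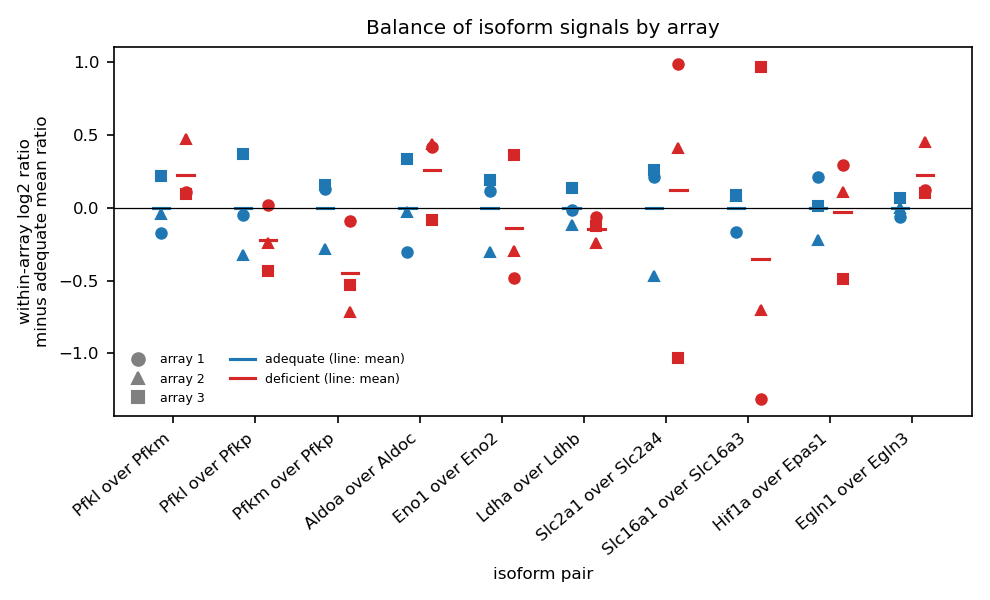
Within-array log2 ratio of 2 isoform signals minus its adequate mean, for 10 pairs, with 1 point per array (shape gives the array number, colour the diet) and a line at each group mean. Egln1 over Egln3 is the pair whose groups do not overlap, and the deficient arrays of Slc2a1 over Slc2a4 and Slc16a1 over Slc16a3 lie on both sides of the adequate ones.

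Other genes of the same pathways were read from 2 further lists. From a list of 40 further genes of glycolysis, gluconeogenesis and pyruvate use, 24 were tested: 11 had lower and 13 higher means, and the median change was 0.01. At an unadjusted p under 0.05, 2 (8.33%) were lower and 0 higher, against 10.1% of all named genes lower, and 6 (25.0%) were lower without overlap, against 13.3%. Lowest in p were Pck2, the mitochondrial PEP carboxykinase (-0.68 ± 0.17, SE), and Eno3, the muscle enolase (-0.63 ± 0.22), then Pdk2, Pfkfb4, Bpgm and Adpgk. From a list of 40 further hypoxia response genes, 32 were tested: 23 had lower and 9 higher means, and the median was -0.11. For all named genes the share with a lower mean was 60.8% and the median -0.09. At that level 3 (9.38%) were lower and 0 higher, near the share of all named genes, and 8 (25.0%) were lower without overlap. The 3 were Gys1, glycogen synthase (-0.99 ± 0.24, SE), Plod1, a collagen lysyl hydroxylase (-0.51 ± 0.15), and Cxcr4, a chemokine receptor (-0.72 ± 0.22). Ankrd37, Mif and Igfbp3 followed. No gene of either list passed the adjusted threshold with limma.

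Markers of cell types that mesentery can hold were read on the same arrays, and their part in the members' values was not tested. Counts of lower markers stand beside the 60.8% of all named genes with a lower mean. Of 7 endothelial markers, 5 were lower. At an unadjusted p under 0.05, 3 were lower (42.9%, against 10.1% of named genes), and 2 were lower without overlap (28.6%, against 13.3%). The summed log2 signal of the 7 was 73.8 to 75.1 in the adequate and 71.1 to 73.1 in the deficient group, without overlap. The 4 adipocyte markers above the cutoff stood on average at -0.18, -0.28 and 0.19 on deficient arrays 1, 2 and 3 relative to the adequate mean, beside -1.24, -0.82 and 0.36 for Slc2a4, and the summed signal of all 9 was 55.0 to 58.7 against 50.9 to 57.3. Of 6 tested skeletal muscle markers 4 were lower (summed signal of 7 markers 48.7 to 50.7 against 47.4 to 50.1), with Pgam2 under the cutoff, and Eno3 is also in the glycolysis list. Smooth muscle markers were higher in 6 of 7, with a median change of 0.62. Of the 7, 4 were higher at an unadjusted p under 0.05, against 4.75% of named genes, and 4 without overlap, against 4.97%. Their summed signal was 92.44 to 94.65 against 94.68 to 97.78, also without overlap, with deficient array 3 next to the adequate arrays. Macrophage markers were lower in 6 of 8 (77.7 to 79.4 against 75.0 to 78.5) and nerve and glia markers in 4 of 5 (53.8 to 54.8 against 52.0 to 54.2). Tested erythroid markers were lower in 3 of 4 (44.2 to 47.2 against 42.7 to 46.4, 5 markers), with Epb42 under the cutoff. The brightest, the haemoglobin gene Hbb, went the other way, at 14.27, 14.29 and 14.19 against 15.01, 15.08 and 14.25. Hepatocyte markers were lower in 6 of 6 (48.8 to 63.3 against 47.2 to 52.5, 7 markers), with the mean of Fgb under the cutoff. Intestinal markers were lower in 3 of 3 (32.5 to 49.8 against 28.2 to 41.0, 6 markers), with the means of Vil1, Fabp2 and Fabp1 under it. For both lists, adequate array 3 was the high array. At an unadjusted p under 0.05, 2 macrophage markers were lower, as was 1 marker each of the erythroid, skeletal muscle, intestinal and nerve and glia lists. Of the nerve and glia list 1 was higher.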

How the data were processed

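The table of 31099 probe sets holds MAS5 signal intensities on a linear scale as deposited; per the submitters' processing notes, MAS5 and Affymetrix Expression Console were used, with versions, background settings and scaling target not given in the sources used here. The 2% trimmed mean is 500.1 to 500.2 on every array, as computed here, so shifts shared by all genes are removed. Dim signals vary strongly on the log scale.

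Signals were log2 transformed with no offset. The 57 array controls and probe sets whose mean log2 signal was below 6.46 (signal 88.2, the 40th percentile) were left out of the test. Groups came from sample titles. Deficient minus adequate was fitted across all 18625 probe sets with limma 3.58.1 in R 4.3.3 (eBayes with a trend, two-sided, Benjamini-Hochberg at 0.05). On simulated data for this comparison 34% of probe sets shifted by 1 log2 unit and 87% shifted by 2 were recovered among 18625, with 3 false calls. A gene was read by its brightest tested probe set. Values on each array were given for members of isoform pairs, members without overlap or with an unadjusted p under 0.05; other members were added after their values were seen, and up to 6 genes with the smallest p were named per further list. Of 35 member genes, 35 matched RefSeq (GRCr8) by Entrez identifier and 0 symbols changed. The members, lists and tests were chosen with earlier results of these data known. Of the 48 member probe sets that are not array controls, 13 were not tested, 11 of them of genes with another tested set. Alternatives were quantile normalization, median centring, other filters, an offset of 50, other variance models, array weights, a replicate block, averaging the probe sets of each gene and leaving out arrays; added after seeing the data were deficient array 3 alone and 2 covariates. Figures used matplotlib 3.10.9.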

Additional observations from a re-analysis of the deposited data

How the results depend on the processing

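With 3 arrays a group and whole-array scaling, small changes and changes shared by all genes were not measurable. The probe sets of Hk2 and Arnt were under the cutoff on every array. For single genes and isoform pairs, 636 alternative values kept their direction and side of the threshold, 16 newly passed it and 54 reversed. Many of the 636 could not have changed. The other filters, the other variance models and the replicate block leave the log2 change of a gene as it is. No isoform pair could pass the threshold, since its permutation p cannot go under 0.1. The total is therefore no measure of robustness. Leaving out 1 array at a time gave 0 to 8 members past the adjusted threshold, against 0% to 22.0% of named genes. At an unadjusted p under 0.05 it gave 0 to 13 lower and 0 to 2 higher, against 3.29% to 24.6% and 1.38% to 13.8% of named genes. The median change of members was -0.32 to -0.16 in these fits, against -0.13 to -0.06 for all named genes. Members lower without overlap numbered 9 to 18. Groups of fewer arrays separate more easily, and the share of named genes without overlap is not given for these fits. The counts of 9 to 18 therefore cannot be set against a background, and nothing is concluded from them. Array weights gave 8 members past the adjusted threshold, 17 lower and 1 higher, but 20.5% of named genes then passed and 25.2% were lower and 13.4% higher at an unadjusted p under 0.05. With the replicate block, the unadjusted p was under 0.05 for 10 lower members (12.1% of named genes), 0 passed, and the smallest adjusted p was 0.235 by limma. Deviations of same-numbered arrays correlated at 0.107, 0.153 and 0.00655 across probe sets, and 5 of 6 arrays correlated best with their own number. The labels do not say whether the numbers pair the arrays, and these values do not settle it. The settings with deficient array 3 alone and with a covariate were chosen after seeing the data.

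On deficient array 3 alone, 15 members lay below the adequate range, as did 32.1% of named genes. The median there was -0.12, against -0.03 for all named genes. With the hybridisation covariate the median was -0.10, also against -0.03. At an unadjusted p under 0.05 by limma, that covariate left 3 lower members (2.93% of named genes) and the beta-actin covariate 4 (4.37%). Reversed values with deficient array 3 alone were Slc2a4 0.36, Aldoc 0.0764, Adm 0.45, Pfkp 0.20, Bnip3 0.00145, Ldhb 0.0185, Pgam1 -0.12, Hif1a -0.32, Pgk1 -0.13 and Slc16a3 -0.66. With the hybridisation covariate they were Slc2a4 0.23, Aldoc 0.10, Adm 0.41, Pfkp 0.20, Bnip3 0.00711, Ldhb 0.0296, Car9 0.0348, Pgam1 -0.0813, Hif1a -0.26, Pgk1 -0.13 and Slc16a3 -0.55. With the beta-actin covariate they were Adm 0.15, Pfkp 0.0163, Car9 0.0226, Pgam1 -0.0200, Hif1a -0.0676, Pgk1 -0.0639 and Slc16a3 -0.14. Quantile normalization reversed Pgam1 (-0.16), Pgk1 (-0.0289) and Aldoa over Aldoc (-0.000206), array weights Slc16a1 (-0.0305), and the mean of probe sets Pgk1 (-0.0628) and Slc2a1 over Slc2a4 (-0.0252). The cause was not tested.

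Leaving out 1 array at a time reversed Aldoa (-0.15 to 0.0717), Car9 (-0.15 to 0.10), Hif1a (-0.0162 to 0.38), Ldhb (-0.14 to 0.0142), Pfkfb3 (-0.22 to 0.0613), Pgam1 (-0.0646 to 0.16), Pgk1 (-0.0512 to 0.36) and Slc16a1 (-0.14 to 0.16). It also reversed the ratios Eno1 over Eno2 (-0.39 to 0.0316), Hif1a over Epas1 (-0.19 to 0.20), Slc16a1 over Slc16a3 (-1.01 to 0.13) and Slc2a1 over Slc2a4 (-0.31 to 0.70).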
